A study of Sus scrofa with 75 samples.

Results

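miR-221 and miR-222 are a pair of related microRNAs (miRNAs), and their levels were described here in blood mononuclear cells of young pigs at 3 ages. Members were all mature names of pig miR-221 or miR-222 in the miRNA count table. The rule found 3 of 457 mature names, ssc-miR-221-3p, ssc-miR-221-5p and ssc-miR-222, each with 1 entry in the table. Of the 457 names, 317 had a read and 209 were tested, and all 3 members were among those tested. ssc-miR-486 and ssc-miR-451, the best known red cell miRNAs, served as the comparison.

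The study followed synthetic large white pigs, with 8 control pigs and 5 topsoil pigs in the miRNA libraries. The control pigs had conventional rearing in farrowing crates. The topsoil pigs received soil daily over days 4 to 20, and weaning at day 20 moved both treatments to soil-free housing. The samples of day 11 and day 20 thus fell within the exposure and those of day 56 after it. Peripheral blood mononuclear cells (PBMC) of the same 13 pigs were isolated on a density gradient at day 11, day 20 and day 56, which gave 39 small RNA libraries, each from 1 pig at 1 age and sequenced in 1 lane. The comparisons asked whether early soil exposure, age, or the joint action of both changed the circulating miRNAs.

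A miRNA is cut from a hairpin precursor, and bases 2 to 8 of the mature strand, the seed, do most of the pairing with target mRNAs. miR-221 and miR-222 are known to repress the mRNAs of the receptor KIT and of the cell cycle inhibitor p27, and their loss is part of normal red cell maturation. miR-486 and miR-451 are, in contrast, made in large amounts by maturing red cells and are carried into blood.

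The 5 mature sequences are shown because the shared seed defines the pair and because the other 2 miRNAs set its scale in these libraries. They are written 5′ to 3′ with the seed in capitals.
ssc-miR-221-3p: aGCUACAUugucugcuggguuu
ssc-miR-222: aGCUACAUcuggcuacugggucuc
ssc-miR-221-5p: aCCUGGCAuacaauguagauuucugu
ssc-miR-486: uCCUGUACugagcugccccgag
ssc-miR-451: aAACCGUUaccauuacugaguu
Positions and sequences are those of the RefSeq annotation of Sscrofa11.1. ssc-miR-221-3p lies at chrX:40571073-40571094, ssc-miR-221-5p at chrX:40571109-40571134 and ssc-miR-222 at chrX:40571814-40571837, all on the minus strand. ssc-miR-486 was read from chr17:10758868-10758889 and ssc-miR-451 from chr12:45088838-45088859, both on the minus strand as well.

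ssc-miR-221-3p and ssc-miR-222 began with the same 8 bases and had the same base at 11 of 22 positions when aligned from the 5′ end without a gap. Counted from 1 at the 5′ end of ssc-miR-221-3p, the differences were U9C, G10U, U11G, C12G, U13C, G14U, C15A, U16C, G17U, U20G and U22C. Of the 11 matches 8 were thus at the 5′ end, and reads that cover the part after it tell the 2 miRNAs apart. Among the 179 tested mature miRNAs with an annotated position, no other carried the seed GCUACAU, and none shared the seed of ssc-miR-221-5p, which is the opposite strand of the miR-221 hairpin. The MIR221 hairpin of 70 bases and the MIR222 hairpin of 80 bases were 670 bases apart on the X chromosome, and 0 annotated genes spanned both. The nearest annotated genes were the long non-coding RNA LOC102166369, 21131 bases away, and the pseudogene LOC106506953 on the other side, 217411 bases away.

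Depth, with 1 entry per mature name, ranged from 1634831 counts in control replicate 7 at day 56 to 13494765 counts in topsoil replicate 2 at day 11. The former library stood apart, since the next shallowest held 5174743 counts. Between 140 and 263 mature miRNAs had a read in a library. ssc-miR-486 alone took from 11.8% of these counts, in topsoil replicate 5 at day 56, to 95.5%, in control replicate 8 at day 11, and the counts of miRNAs other than miR-486 and miR-451 ran from 388413 to 6341118 per library.

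Counts were therefore divided by a library size scaled to the upper quartile of the 209 tested miRNAs, and levels are given as scaled CPM. By construction the tested miRNA at the 75% point then has 107 scaled CPM in each library. Levels on this scale do not add up to the same sum in each library, and ssc-miR-486 reached 4374382 in topsoil replicate 1 at day 20.

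The PBMC label was checked against 3 lists of marker miRNAs. Leukocyte miRNAs, 10 of 10 tested and led by ssc-miR-181a, made up a median 2.19% of the counts in control pigs and 2.28% in topsoil pigs at day 11, 3.86% and 2.78% at day 20, and 22.7% and 23.1% at day 56. These are shares of all counts, in which a fall of ssc-miR-486 raises the share of all other miRNAs. The red cell list, ssc-miR-486, ssc-miR-451 and ssc-miR-144, all 3 tested and led by ssc-miR-486, took a median 91.4% and 88.9% at day 11, 77.9% and 89.2% at day 20, and 42.4% and 38.0% at day 56 in control and topsoil pigs. Nearly all of this share was ssc-miR-486, with 290258758 counts over the libraries against 204396 for ssc-miR-451 and 5366 for ssc-miR-144. The share thus does not give the course of the rest of the list. In scaled CPM ssc-miR-451 was higher at day 20 than at day 11 in 7 of 8 control pigs and in 1 of 5 topsoil pigs. Both lists were thus present at each age, and the libraries held more red cell than leukocyte miRNA counts by median at each of them. In the topsoil pigs, replicates 1 to 5, the red cell share was 95.3%, 88.9%, 89.8%, 85.5% and 76.2% at day 11, 94.6%, 74.1%, 89.2%, 95.5% and 85.8% at day 20, and 38.0%, 48.1%, 48.3%, 25.8% and 11.8% at day 56. Control pigs ranged from 69.2% to 95.5% at day 11, from 65.5% to 95.1% at day 20 and from 18.5% to 75.3% at day 56. The day 56 libraries of topsoil pigs were all below their day 11 and day 20 libraries, whereas in control pigs the ranges of the ages overlapped. Platelet and vascular miRNAs, 5 of 6 tested and led by ssc-miR-143-3p, stayed at medians between 0.00440% and 0.00996%.

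miR-222 was the most abundant of the 3 members, with 64580 counts over the 39 libraries, against 27244 for miR-221-3p and 7886 for miR-221-5p. In topsoil pigs, replicates 1 to 5, miR-222 stood at 61.0, 71.5, 217, 103 and 96.2 scaled CPM at day 11, at 107, 85.9, 138, 72.1 and 215 at day 20, and at 140, 163, 89.5, 170 and 334 at day 56. In control pigs its lowest, median and highest level was 59.2, 98.8 and 142.6 at day 11, 41.5, 95.2 and 216 at day 20, and 107, 156 and 264 at day 56. Topsoil replicate 3 was high at day 11 and lowest of its group at day 56, topsoil replicate 5 was highest of its group at day 20 and day 56, and the 2 treatments overlapped at each age. The counts behind these levels ranged from 183 to 6372. By abundance miR-222 had a median rank among the miRNAs of its library of 54.5, 56.5 and 46.5 in control pigs at days 11, 20 and 56, and of 55, 53 and 48 in topsoil pigs. It therefore lay close to the miRNA that sets the upper quartile. In control replicate 6 at day 11, topsoil replicate 1 at day 20 and control replicate 5 at day 56 it was at that point itself. Its level of 107 in these libraries, the lowest of control pigs at day 56 included, was thus fixed by the scaling.

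miR-221-3p, the strand of the miR-221 hairpin that shares its seed with miR-222, was lower. Topsoil replicates 1 to 5 stood at 48.8, 29.6, 66.5, 36.3 and 64.9 scaled CPM at day 11, at 42.7, 31.1, 54.3, 34.8 and 72.0 at day 20, and at 52.2, 64.1, 77.7, 78.7 and 107 at day 56. Control pigs had a lowest, median and highest level of 10.4, 30.4 and 74.7 at day 11, 14.2, 49.5 and 107 at day 20, and 25.8, 76.7 and 133 at day 56. The control range enclosed the topsoil values at each age, and control replicate 4 was the lowest control pig at both day 20 and day 56. Counts ranged from 23 to 3185, the fewest in control replicate 8 at day 11. Its median rank was 79.5, 73 and 61.5 in control pigs and 69, 77 and 61 in topsoil pigs. In control replicate 3 at day 20 it was itself the miRNA at the 75% point, so its level of 107 there was fixed by the scaling.

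miR-221-5p, the opposite strand, was scarce and variable. Levels of topsoil replicates 1 to 5 were 7.72, 15.2, 17.1, 6.92 and 5.62 scaled CPM at day 11, 5.94, 18.3, 23.3, 26.7 and 11.2 at day 20, and 15.9, 23.9, 8.73, 7.13 and 24.6 at day 56. Control pigs had a lowest, median and highest level of 0, 6.68 and 35.1 at day 11, 0, 8.36 and 42.6 at day 20, and 6.71, 27.1 and 37.7 at day 56. The treatments overlapped at each age, with a coefficient of variation of 109.5%, 99.4% and 49.8% in control pigs and 49.9%, 49.96% and 51.0% in topsoil pigs at days 11, 20 and 56. Its count was 0 in control replicate 8 at day 11, which allows up to 1.36 scaled CPM, and in control replicate 4 at day 20, which allows up to 0.887. These limits are the level of 3 counts and cover counting error only, since the reads carried no molecular identifiers.

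The order of the medians was the same in each of the 6 groups, miR-222 above miR-221-3p above miR-221-5p. A ratio of the counts of 2 miRNAs within a library needs no scaling, although library preparation can favour one sequence over another, so it is not a ratio of molecules. With 0.5 added to both counts, miR-222 was between 1.06 and 7.81 times miR-221-3p over the 39 libraries, with medians of 2.18, 1.84 and 1.91 in control pigs and 2.42, 2.53 and 2.54 in topsoil pigs at days 11, 20 and 56. miR-222 was thus the higher of the 2 in all 39 libraries. Within each member no 2 ages or treatments had ranges that separated. Some medians of neighbouring ages nevertheless differed by more than the SD of either group. In topsoil pigs that of miR-221-3p was 42.7 (SD 16.6) at day 20 and 77.7 (SD 20.5) at day 56. For miR-221-5p it was 8.36 (SD 13.8) at day 20 and 27.1 (SD 12.1) at day 56 in control pigs. In topsoil pigs it was 7.72 (SD 5.24) at day 11 and 18.3 (SD 8.54) at day 20.

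**Figure D1:**
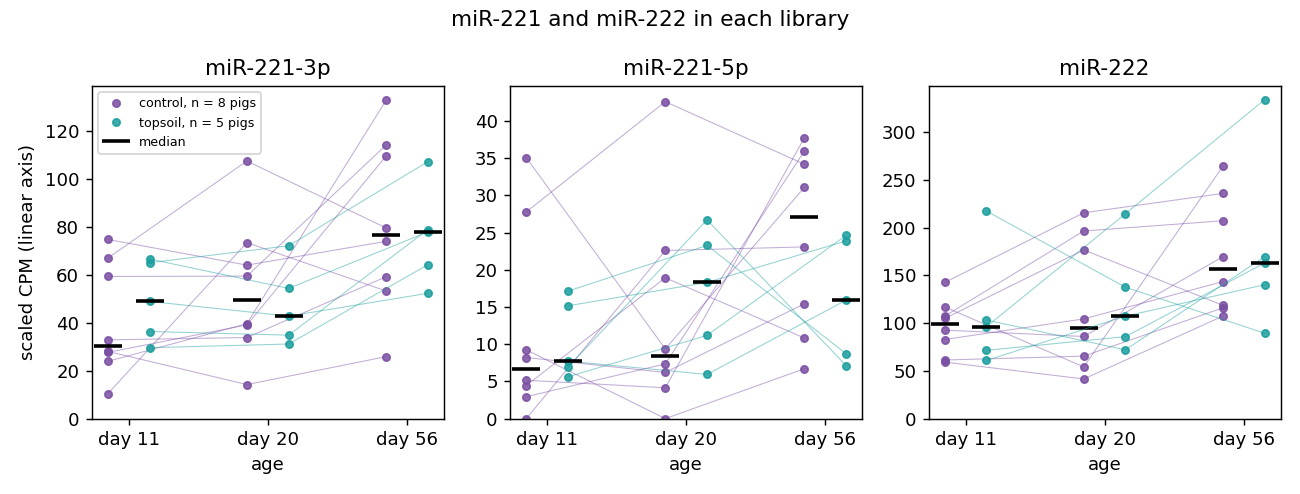
Level of miR-221-3p, miR-221-5p and miR-222 in upper-quartile scaled CPM (vertical axis, linear) against age in days, with a point for each pig joined by lines over its 3 ages and a bar at each group median, control pigs (n = 8) in purple and topsoil pigs (n = 5) in teal. Control and topsoil points overlap in each panel at each age, and miR-222 was higher at day 56 than at day 11 in 12 of 13 pigs.

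Age was the first comparison. Taken over all pigs, as the mean of the control and the topsoil change in the same fit (a contrast added after the data were seen), miR-222 and miR-221-3p rose from day 11 to day 56. miR-222 rose by 0.77 on the log2 scale (SE 0.23, edgeR adjusted p = 0.0128), 1.71-fold, and was higher in 12 of 13 pigs, topsoil replicate 3 being the exception. The rise of miR-221-3p was 0.86 (SE 0.26, edgeR adjusted p = 0.0150), 1.82-fold, with 11 of 13 pigs higher and control replicates 1 and 4 lower. For miR-221-5p the log2 difference was 0.93 (SE 0.55, edgeR adjusted p = 0.257), with 10 of 13 pigs higher, and did not pass the false discovery rate of 0.10.

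These 2 calls among the 3 members stood against 53 among the 209 miRNAs tested, or 25.4%, of which 36 were up and 17 down. The median log2 difference of all 209 was 0.46 on the upper-quartile scale, so that relative to it miR-221-3p was 0.40 and miR-222 0.31 higher. Changes of that size placed miR-221-3p 62nd and miR-222 73rd from the top. The median itself moved with the scaling, to 0.29 with TMM, 0.13 with the library size taken without miR-486 and miR-451, 0.21 with DESeq2 and 2.38 with total counts. Relative to the median, the difference of miR-221-3p lay between 0.35 and 0.52 and that of miR-222 between 0.27 and 0.45 over the 9 other settings. The calls of both were lost under 1 of these, the library size without miR-486 and miR-451, where miR-221-3p differed by 0.52 (edgeR adjusted p = 0.219) and miR-222 by 0.46 (edgeR adjusted p = 0.135). Leaving out each pig in turn kept both calls, with values from 0.77 to 0.97 for miR-221-3p and from 0.66 to 0.98 for miR-222.

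Within control pigs the same 2 members passed in edgeR from day 11 to day 56, while DESeq2 and limma each called miR-221-3p alone. miR-221-3p rose by 1.06 (SE 0.34, edgeR adjusted p = 0.0384), with 6 of 8 pigs higher, which was 0.78 above the median of 0.28. miR-222 rose by 0.80 (SE 0.29, edgeR adjusted p = 0.0650), with 8 of 8 pigs higher, 0.52 above that median. miR-221-5p differed by 1.10 (SE 0.73, edgeR adjusted p = 0.406), with 6 of 8 pigs higher. The background was 37 calls, or 17.7%, with 27 up and 10 down.

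Both control calls depended on single pigs, on the scaling and on the filter. That of miR-221-3p was lost without control replicate 2 (edgeR adjusted p = 0.106) or replicate 7 (edgeR adjusted p = 0.151), the pig with the shallow library, with a log2 difference of 0.87 at the lowest. That of miR-222 was lost without control replicate 6, 7 or 8 (edgeR adjusted p = 0.118, 0.157 and 0.118), where values over all left-out pigs ran from 0.74 to 0.88. With TMM the differences were 0.87 (edgeR adjusted p = 0.103) and 0.66 (edgeR adjusted p = 0.129), and without miR-486 and miR-451 in the library size they were 0.61 (edgeR adjusted p = 0.332) and 0.40 (edgeR adjusted p = 0.393), in miR-221-3p and miR-222 respectively. Without the filter on low counts they were 0.93 (edgeR adjusted p = 0.109) and 0.70 (edgeR adjusted p = 0.158). miR-222 differed by 0.56 with DESeq2 (adjusted p = 0.106), by 0.77 with limma (adjusted p = 0.113) and, without the pig as a block, by 0.73 (edgeR adjusted p = 0.125).

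In topsoil pigs 0 of 3 members passed in edgeR from day 11 to day 56, although 1 had an unadjusted p under 0.05, and DESeq2 and limma called 0 as well. The background was 28 calls, or 13.4%. miR-221-3p differed by 0.67 (SE 0.39, edgeR adjusted p = 0.331) and was higher in 5 of 5 pigs. miR-222 differed by 0.74 (SE 0.36, edgeR adjusted p = 0.194) and was higher in 4 of 5. Without topsoil replicate 3, whose miR-222 level at day 11 was far above the others, its difference was 1.19 (edgeR adjusted p = 0.0383) and passed. miR-221-5p differed by 0.75 (SE 0.83, edgeR adjusted p = 0.654), with 4 of 5 pigs higher. The topsoil differences were 0.17, 0.24 and 0.25 above their median of 0.50 for miR-221-3p, miR-222 and miR-221-5p.

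The passing of the threshold in control pigs alone did not show a difference between treatments. The extra change of topsoil pigs from day 11 to day 56 was −0.39 for miR-221-3p (SE 0.52, edgeR adjusted p = 0.994), −0.06 for miR-222 (SE 0.47, edgeR adjusted p = 0.994) and −0.35 for miR-221-5p (SE 1.12, edgeR adjusted p = 0.994). Over all 3 ages the treatment by age test gave edgeR adjusted p = 0.943, 0.989 and 0.919 for miR-221-3p, miR-222 and miR-221-5p. It called 0 of the 3 members and 0 of the 209 miRNAs, or 0%, where 22 of the 209 and 0 of the members had an unadjusted p under 0.05, DESeq2 called 0 and limma 2, the latter not members.

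In edgeR the shorter intervals held no call of a member. From day 11 to day 20, 0 of 3 members passed in control pigs by edgeR, DESeq2 or limma, with 0 at an unadjusted p under 0.05, against a background of 11 calls or 5.26%. miR-221-3p differed by 0.38 (SE 0.32, 6 of 8 pigs higher), miR-222 by 0.17 (SE 0.28, 5 of 8) and miR-221-5p by 0.12 (SE 0.74, 4 of 8). The last had the opposite sign, −0.04, when miR-486 and miR-451 were taken out of the library size, and miR-222 had it with DESeq2, −0.06. In topsoil pigs over the same interval 0 of 3 members passed with these 3 tools, and 0 of the 209 miRNAs, or 0%, where 6 had an unadjusted p under 0.05 and DESeq2 called 5 and limma 0. miR-221-3p differed by −0.12 (SE 0.41, 2 of 5 pigs higher), miR-222 by 0.19 (SE 0.38, 3 of 5) and miR-221-5p by 0.99 (SE 0.90, 4 of 5). Without the pig as a block miR-221-3p was at 0.0048, of opposite sign.

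From day 20 to day 56 the difference between treatments in the change was not tested on its own. In control pigs the log2 differences were 0.68 for miR-221-3p (SE 0.33, edgeR adjusted p = 0.243, 6 of 8 pigs higher), 0.62 for miR-222 (SE 0.28, edgeR adjusted p = 0.212, 7 of 8) and 0.97 for miR-221-5p (SE 0.70, edgeR adjusted p = 0.525, 6 of 8), which was 0.71, 0.65 and 1.00 above the median of −0.03. edgeR called 0 of 3 members, with 2 at an unadjusted p under 0.05, limma 0 and DESeq2 1, which was miR-222, against a background of 26 calls or 12.4%. In topsoil pigs the differences were 0.79 for miR-221-3p (SE 0.42, edgeR adjusted p = 0.274, 5 of 5 pigs higher), 0.55 for miR-222 (SE 0.36, edgeR adjusted p = 0.375, 4 of 5) and −0.24 for miR-221-5p (SE 0.92, edgeR adjusted p = 0.930, 3 of 5), which was 0.22, −0.02 and −0.81 from the median of 0.57. There 0 of 3 members passed with the same 3 tools, 0 had an unadjusted p under 0.05, and 20 of 209 miRNAs, or 9.57%, were called. The sign of miR-221-5p was opposite with total counts, at 1.91. Relative to the median of all 209 it was negative in all 9 other settings, from −1.02 to −0.55. Leaving out 1 pig brought a member past the threshold in control pigs, miR-221-3p without replicate 8 and miR-222 without replicate 1, with highest values of 0.86 and 0.80.

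The second comparison was between treatments at one age, and it called 0 of 3 members at each age with edgeR, DESeq2 and limma, with 0 at an unadjusted p under 0.05. At day 11 the log2 difference, topsoil minus control, was 0.28 for miR-221-3p (SE 0.43, edgeR adjusted p = 0.994), 0.19 for miR-222 (SE 0.33, edgeR adjusted p = 0.994) and −0.15 for miR-221-5p (SE 0.79, edgeR adjusted p = 0.994). miR-222 had the opposite sign, −0.05, with the library size without miR-486 and miR-451. miR-221-5p had it with limma, 0.70, and ran from −0.39 to 0.34 with each pig left out. At this age 0 of the 209 miRNAs, or 0%, were called, with 6 at an unadjusted p under 0.05 and 0 called by DESeq2 or limma. At day 20 the differences were −0.20 for miR-221-3p (SE 0.41, edgeR adjusted p = 0.876), with the opposite sign with TMM at 0.02, 0.07 for miR-222 (SE 0.40, edgeR adjusted p = 0.950), opposite with total counts at −0.75, and 0.29 for miR-221-5p (SE 0.75, edgeR adjusted p = 0.884), opposite with total counts at −0.79. The members thus differed between treatments by less than the spread between pigs. A change of scaling moves all miRNAs, so these sign changes are not particular to the members. Relative to the median of all 209, miR-222 kept its sign over the 7 other settings at day 11 (0.04 to 0.11) and day 20 (0.28 to 0.53). So did miR-221-3p at day 11 (0.15 to 0.36) and miR-221-5p at day 20 (0.24 to 1.00). The sign was not kept by miR-221-5p at day 11 (−0.36 to 0.59) or miR-221-3p at day 20 (−0.09 to 0.22).

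At day 20 a single miRNA of the 209, or 0.478%, was called, with 26 at an unadjusted p under 0.05, DESeq2 calling 3 and limma 0. This was ssc-miR-375, a miRNA of epithelial and endocrine cells, named after its values were seen, with a log2 difference of 7.59 (SE 1.42, edgeR adjusted p = 0.00598). It had 808 counts in topsoil replicate 3 and 338 in topsoil replicate 5, at most 1 in the other 3 topsoil libraries, and at most 8 in the 8 control libraries, so 2 of 5 topsoil pigs carried the difference, and without topsoil replicate 3 the number called was 0. At day 56 the members differed by −0.09 for miR-221-3p (SE 0.33, edgeR adjusted p = 0.939), 0.07 for miR-222 (SE 0.30, edgeR adjusted p = 0.939) and −0.60 for miR-221-5p (SE 0.45, edgeR adjusted p = 0.862), with opposite signs for miR-221-3p with total counts, 0.27, and for miR-222 with TMM, −0.01. Relative to the median of all 209 at day 56, miR-221-3p was negative in the 7 other settings (−0.18 to −0.05), and miR-222 ran from −0.14 to 0.12. None of the 209, or 0%, were called at day 56, with 6 at an unadjusted p under 0.05 and 0 called by DESeq2 or limma.

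From day 11 to day 56 the comparison miRNAs took the opposite course to miR-221-3p and miR-222 on the upper-quartile scale. In control pigs miR-486 had a lowest, median and highest level of 280429, 1968462 and 3741012 scaled CPM at day 11, 342567, 554993 and 3750948 at day 20, and 46657, 229704 and 808878 at day 56. In topsoil pigs, replicates 1 to 5, it stood at 3252234, 1555200, 2542693, 1015386 and 540454 at day 11, at 4374382, 449416, 1983729, 2807944 and 1324733 at day 20, and at 130045, 218807, 189300.1, 73768 and 33797 at day 56. Each topsoil pig was lower at day 56 than any of them had been before, while in control pigs the ranges of the ages overlapped. Over all pigs miR-486 fell by 3.34 from day 11 to day 56 (SE 0.54, edgeR adjusted p = 2.41e-05), lower in 13 of 13 pigs, and it fell under each of the other scalings too, by 1.21 with total counts at the least.

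miR-451 in control pigs had a lowest, median and highest level of 192, 336 and 822 scaled CPM at day 11, 305, 795 and 2364 at day 20, and 72.0, 151 and 275 at day 56. Topsoil replicates 1 to 5 stood at 414, 481, 503, 1571 and 422 at day 11, at 218, 694, 283, 509 and 413 at day 20, and at 366, 195, 136, 148 and 111 at day 56. The highest topsoil value, that of replicate 4 at day 11, was far above the others at that age, and topsoil values at day 56 were all below those at day 11. miR-451 fell by 1.62 over all pigs from day 11 to day 56 (SE 0.33, edgeR adjusted p = 0.000460). It was lower in 11 of 13 pigs. With total counts the difference was 0.36 (edgeR adjusted p = 0.544), of opposite sign, but the median of all tested miRNAs was then 2.38. Relative to the median of each setting, miR-451 lay between −2.13 and −1.93 over the 9 other settings, so it was below the median in all of them.

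As a list, the red cell miRNAs were called down in 3 of 3 from day 11 to day 56 over all pigs, beside 17 of 209 among all tested, with a median log2 difference of −2.51 beside 0.46, whereas with total counts 1 of 3 was called down, beside 1 of 209, and the median was −0.59. Of the leukocyte miRNAs 5 of 10 were called up and 0 down by edgeR, with a median of 0.78, beside 36 of 209 up among all tested. With total counts 10 of 10 were called up, with a median of 2.715, beside 161 of 209. The 5 were ssc-miR-142-5p (1.55, SE 0.24), ssc-miR-181a (1.03, SE 0.19), ssc-miR-150 (0.87, SE 0.21), ssc-miR-181b (0.85, SE 0.17) and ssc-miR-146a-5p (0.71, SE 0.21). These 5 are the ones that passed, so their range is not that of the list, in which 9 of 10 differences were positive. The differences of miR-221-3p and miR-222 were 0.86 and 0.77, beside the median of 0.78 for all 10. Of the platelet and vascular miRNAs 0 of 5 were called up and 1 down, ssc-miR-143-3p (−1.66, SE 0.36), beside the 36 up and 17 down of 209, and the list's median was −0.86, with −0.91 in control and 1.47 in topsoil pigs. With total counts 2 of these 5 were called up and 0 down, beside 161 up and 1 down of 209, and the median was 0.51, of opposite sign and below the 2.38 of all tested. ssc-miR-199a-3p and ssc-miR-199b-3p had identical counts in that list and were not independent. Leaving out any 1 pig did not move the counts of these 3 lists over all pigs. The median share of red cell miRNAs was lower at day 56 than at day 11 in both treatments while miR-221-3p and miR-222 were higher, and their part in the result was not tested. In a bulk library fewer cells of a type and less RNA per cell cannot be told apart.

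Set against miR-486, the members were rare. With 0.5 added to both counts, miR-486 was a median of 19629 times miR-222 in control pigs at day 11, 9888 times at day 20 and 1109 times at day 56, and in topsoil pigs 11689, 14407 and 927 times. For miR-221-3p the medians were 32421, 14901 and 4374 in control pigs and 38161, 36504 and 2434 in topsoil pigs. On the log2 scale, miR-222 over miR-486 in topsoil replicates 1 to 5 was −15.70, −14.41, −13.51, −13.26 and −12.45 at day 11, −15.31, −12.35, −13.81, −15.25 and −12.59 at day 20, and −9.86, −10.39, −11.05, −8.76 and −6.66 at day 56. All 5 ratios at day 56 were above all those at day 11 and day 20. In control pigs this log2 ratio ranged from −15.46 to −11.56 at day 11, from −15.41 to −11.16 at day 20 and from −11.93 to −8.65 at day 56, so that day 56 overlapped with day 11 through control replicate 4 and with day 20 through control replicates 1, 6 and 8.

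Changes of the ratios were tested by an exact sign-flip permutation over pigs, two-sided, within a family of 96 ratio tests. Over all pigs the log2 ratio of miR-222 to miR-486 rose by 4.11 from day 11 to day 56 (SD of the pigs' changes 1.66, higher in 13 of 13, permutation p = 0.000244, adjusted p = 0.00469). That of miR-221-3p to miR-486 rose by 4.26 (SD 2.09, higher in 13 of 13) and that of miR-221-5p by 4.70 (SD 2.92, higher in 13 of 13), with the same permutation p, the smallest that 13 pigs can give. The rise of miR-221-5p included control replicate 8, with a count of 0 at day 11, and ran from 4.09 to 5.01 with each pig left out. Over miR-451 the rises were 2.36 for miR-222 (SD 1.24, 13 of 13, permutation p = 0.000244, adjusted p = 0.00469), 2.502 for miR-221-3p (SD 1.70, 12 of 13, permutation p = 0.000732, adjusted p = 0.00938) and 2.95 for miR-221-5p (SD 2.43, 11 of 13, permutation p = 0.000977, adjusted p = 0.00938). From day 20 to day 56 the 6 rises lay between 2.63, for miR-222 over miR-451, and 3.83, for miR-221-5p over miR-486. Over all pigs 12 of 12 tests thus passed for these intervals. The ratios of other miRNAs to miR-486 and miR-451 were not tested. From day 11 to day 56 miR-486 lay at −3.80 and miR-451 at −2.08 relative to the median log2 difference of all tested miRNAs. A miRNA at that median would thus also rise against both, so the rises are not particular to the members.

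**Figure D2:**
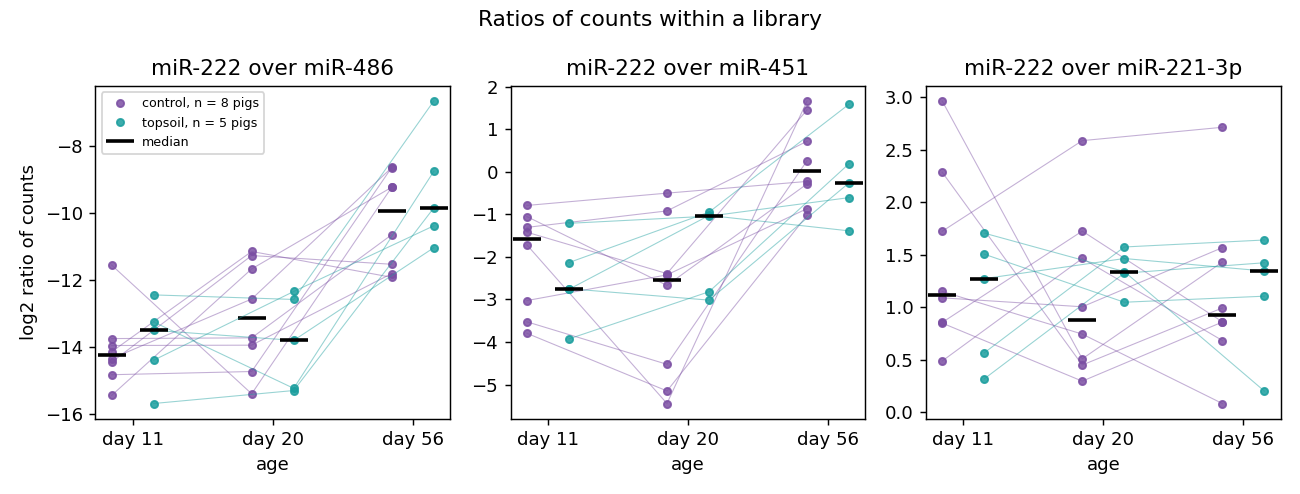
Log2 ratio of the counts of miR-222 to miR-486, of miR-222 to miR-451 and of miR-222 to miR-221-3p (vertical axis) against age in days, with a point for each pig joined by lines over its 3 ages and a bar at each group median, control pigs (n = 8) in purple and topsoil pigs (n = 5) in teal. The ratios to miR-486 and miR-451 were higher at day 56 than at day 11 in 13 of 13 pigs, while that to miR-221-3p was higher in 8 of 13.

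Control pigs alone passed in 8 of 12 such tests of ratios over miR-486 or miR-451. From day 11 to day 56 in control pigs, miR-486 lay at −3.25 and miR-451 at −1.77 relative to the median of all tested miRNAs. Much of each rise in control pigs over this interval would thus be shown by a miRNA at the median. There the log2 ratio to miR-486 rose from day 11 to day 56 by 3.86 for miR-222, 4.13 for miR-221-3p and 4.91 for miR-221-5p, each higher in 8 of 8 pigs (exact permutation p = 0.00781, adjusted p = 0.0395), and the ratio of miR-222 to miR-451 rose by 2.29, also in 8 of 8 and with the same p. The ratio of miR-221-3p to miR-451 was 2.57 higher, in 7 of 8 pigs (exact permutation p = 0.0234, adjusted p = 0.107), and did not pass, although without control replicate 4, the pig with the lower ratio, it did (adjusted p = 0.0682), with values between 2.24 and 2.97 over the left-out pigs. From day 20 to day 56 that ratio rose by 3.17 (7 of 8 pigs, exact permutation p = 0.0156, adjusted p = 0.0750), with values between 2.68 and 3.66 over the left-out pigs. With 7 pigs this test passed only where all 7 were higher, so the loss of the call without any control pig but replicate 3, the pig with the lower ratio, follows from the number of pigs. The 5 topsoil pigs cannot give an exact p below 0.0625, and 0 of 12 tests passed, with the smallest adjusted p at 0.182. Their log2 ratios over miR-486 were 4.52, 4.45 and 4.37 higher at day 56 than at day 11 for miR-222, miR-221-3p and miR-221-5p, and over miR-451 2.46, 2.39 and 2.31 higher, in 5 of 5 pigs each. The difference in change of the ratios between treatments was not tested.

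Before weaning the ratios held no call, with 0 of 24 tests past the threshold from day 11 to day 20 (smallest exact permutation p = 0.0859, adjusted p = 0.243, log2 differences from −0.92 to 1.33). Between treatments 0 of 24 exact permutation tests passed (smallest p = 0.131, adjusted p = 0.321), with log2 differences from −1.05 to 2.18. For 8 control against 5 topsoil pigs the smallest exact p is 0.000777. The largest of these differences was that of miR-221-5p over miR-451 at day 20, where a control library had a count of 0 for miR-221-5p.

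The members kept their proportions to each other within the spread between pigs. The mean log2 ratio of miR-222 to miR-221-3p was 1.43, 1.10 and 1.15 in control pigs and 1.07, 1.35 and 1.14 in topsoil pigs at days 11, 20 and 56. From day 11 to day 56 it differed by −0.14 over all pigs (SD 0.95, higher in 8 of 13, permutation p = 0.584, adjusted p = 0.771). The 2 strands of the miR-221 hairpin had a mean log2 ratio, 5p over 3p, of −2.57, −2.76 and −1.79 in control pigs and −2.29, −1.57 and −2.37 in topsoil pigs, with a difference of 0.45 from day 11 to day 56 over all pigs (SD 1.61, higher in 7 of 13, permutation p = 0.367, adjusted p = 0.608). Of 24 exact or permutation tests within the family, 0 passed, the smallest p being 0.125 (adjusted p = 0.316).

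Between pigs of one age, 18 correlations of log2 CPM were computed over 13 pigs, with permutation p-values adjusted over the 18. miR-221-3p and miR-222 were correlated at day 20 (r = 0.663, permutation p = 0.0115, adjusted p = 0.0691, and rho = 0.753, permutation p = 0.00412, adjusted p = 0.0742), and r was 0.793 without the 2 pigs farthest from the median of miR-221-3p. Within the 8 control pigs r was 0.614, and none is reported within the 5 topsoil pigs because of their number. With TMM scaling r was 0.603 (permutation adjusted p = 0.108) and did not pass, while rho passed (0.753, permutation adjusted p = 0.0774). At day 11 this pair had r = 0.431 (permutation p = 0.145, adjusted p = 0.434) and rho = 0.467 (permutation p = 0.111, adjusted p = 0.358), and at day 56 r = 0.337 (permutation p = 0.262, adjusted p = 0.544) and rho = 0.456 (permutation p = 0.119, adjusted p = 0.358).

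The 2 strands of miR-221 were correlated by r at day 11 (r = 0.763, permutation p = 0.00530, adjusted p = 0.0691) but not by rho (rho = 0.560, permutation p = 0.0504, adjusted p = 0.227), and r was 0.327 without the 2 farthest pigs, so the relation rested on those pigs. At day 20 it was alike, with r = 0.682 (permutation p = 0.0202, adjusted p = 0.0727), rho = 0.385 (permutation p = 0.193, adjusted p = 0.387) and r = 0.404 without the 2 farthest. At both ages the library with a count of 0 for miR-221-5p was also the lowest for miR-221-3p. At day 56, where no count was 0, r was 0.315 (permutation p = 0.302, adjusted p = 0.544) and rho 0.220 (permutation p = 0.472, adjusted p = 0.678).

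With miR-451, 2 of 6 combinations of member and age passed by r and 0 by rho. They were negative, at day 56 for miR-221-3p (r = −0.662, permutation p = 0.0111, adjusted p = 0.0691, and rho = −0.659, permutation p = 0.0169, adjusted p = 0.102) and at day 20 for miR-222 (r = −0.647, permutation p = 0.0179, adjusted p = 0.0727, and rho = −0.670, permutation p = 0.0148, adjusted p = 0.102). Without the 2 farthest pigs r was −0.769 and −0.528. The other 4 had r = −0.364 and −0.318 for miR-221-3p at days 11 and 20 and −0.272 and −0.145 for miR-222 at days 11 and 56 (permutation adjusted p = 0.544, 0.544, 0.604 and 0.764). Both that passed depended on the scaling, since with total counts they were 0.129 and 0.525, of opposite sign, and with TMM the first was −0.502 and did not pass while the second was −0.698 and did (permutation adjusted p = 0.0905). With miR-486, r lay between −0.213 and 0.178 over the 6 combinations of member and age, and 0 of the 6 passed. With total counts all 6 passed (permutation, adjusted p at most 0.00970), with r between −0.895 and −0.755.

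Over the 39 libraries together, which share pigs and ages, the tested miRNA most like miR-221-3p by Spearman correlation of log2 CPM was ssc-miR-29a-3p (rho 0.723), followed by ssc-miR-150 (0.683), ssc-miR-29c (0.669), ssc-miR-222 (0.654) and ssc-miR-21-5p (0.647). Most like miR-222 were ssc-miR-378 (0.767), ssc-miR-181a (0.682), ssc-miR-181b (0.668), ssc-miR-221-3p (0.654) and ssc-miR-23a (0.639). miR-221-3p and miR-222 were thus each the other's 4th nearest of 208 miRNAs, where the median rho of all 208 was 0.126 and 0.149. Of these, ssc-miR-150, ssc-miR-181a and ssc-miR-181b are on the leukocyte list, while the others, the nearest of each member included, are on none of the 3 lists. With total counts ssc-miR-150, ssc-miR-181a and ssc-miR-181b were not among the 5 nearest of either member. With TMM ssc-miR-181b was not among them. miR-221-5p stood 20th for both, with rho 0.532 to miR-221-3p and 0.511 to miR-222.

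Among the least like were 2 red cell miRNAs. For miR-221-3p they were ssc-miR-451 (rho −0.590), ssc-miR-144 (−0.542) and ssc-miR-148a-3p (−0.524), and for miR-222 ssc-miR-144 (−0.593), ssc-miR-451 (−0.575) and ssc-miR-148a-3p (−0.543), of which ssc-miR-148a-3p is not on the red cell list. miR-486 had rho −0.390 and −0.328. With total counts the median rho was 0.767 and 0.776, and miR-486 was then the least like of the 208 for both (−0.939 and −0.946), whereas miR-451 had positive values of 0.341 and 0.383. miR-221-3p and miR-222 had rho 0.932 with total counts, where miR-222 was 13th nearest to miR-221-3p and miR-221-3p 6th nearest to miR-222, and 0.576 with TMM, where each was 3rd. With TMM the least like was ssc-miR-7139-5p for both (−0.611 and −0.638), miR-451 was 207th for miR-221-3p and 202nd for miR-222, and no red cell miRNA was among the last 3 for miR-222.

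Position on the X chromosome was shared with 23 other tested mature miRNAs. From day 11 to day 56 over all pigs 5 of the 23 were called up and 0 down by edgeR, with a median log2 difference of 0.81 beside 0.46 for all 209. These were ssc-miR-450b-5p (2.77, SE 1.07), ssc-miR-532-5p (1.36, SE 0.25), ssc-miR-500-3p (1.33, SE 0.48), ssc-miR-421-3p (1.28, SE 0.40) and ssc-miR-363 (0.70, SE 0.21). Their share, 5 of 23, was close to the 25.4% called among all tested miRNAs. The number called up ran from 3 to 5 over fits that lacked 1 pig, with ssc-miR-450b-5p lost without topsoil replicate 1, 3 or 5 or control replicate 7 and ssc-miR-500-3p lost without topsoil replicate 1 or 5, and was 1 when the library size was taken without miR-486 and miR-451, beside 16 of 209 up among all tested, and 20 with total counts, beside 161 of 209. The number called down was 1 with TMM, DESeq2 or the library size without miR-486 and miR-451.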

How the data were processed

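The authors deposited raw read counts per mature miRNA and precursor for 39 libraries, made from reads trimmed with Trim Galore 0.4.5 and checked with FastQC 0.11.3, per the submitters' processing notes, and assigned with miRDeep2 (version not given in the sources used here) on Sscrofa11.1. The deposited mRNA counts were not used. Groups, ages and pig numbers came from the sample descriptions and column names, since the characteristics of some samples disagreed with them. Where a mature name had more than 1 entry, that of largest total was used. The tested miRNAs had reads in 17 or more libraries and averaged above 2 counts, and were fitted in edgeR 4.0.16 (R 4.3.3) with upper-quartile (75%) scaling and the quasi-likelihood test. The age model held pig as a block, treatment by age and RNA quality (RQI), in place of the random pig effect of the study's SAS model. Treatments at one age were compared without covariates. Adjusted p-values were by Benjamini-Hochberg over all tested miRNAs, at a false discovery rate of 0.10, and log2 CPM had a prior count of 2. Fits and permutation tests were tested on simulated data.

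Ratios had 0.5 added to each count, and their log2 was tested by exact two-sided permutation over pigs, adjusted over 96 tests. The 18 correlations used 100000 permutations each (Python 3.11.15, scipy 1.17.1). The smallest p that permutation can give is 0.00781 for 8 control pigs, 0.0625 for 5 topsoil pigs, 0.000244 for 13 pigs and 0.000777 between treatments. A count of 0 was taken to allow 3 counts. No 2 libraries held identical values. The numbers pair the samples because the same pigs were bled at each age, and deviations of the same pig at 2 ages correlated with a mean r of 0.0554 (39 pairs), against −0.00298 for different pigs of a treatment (228 pairs). Members, miR-486 and miR-451, the 5 tested miRNAs most and 3 least like miR-221-3p and miR-222, those with the same seed and those on the X chromosome were the named miRNAs. The members and lists were chosen with earlier results of these data known. Alternatives were TMM scaling, total counts, the library size without miR-486 and miR-451, DESeq2 1.42.0, limma 3.58.1 voom (pig random, with sex and parity), no filter on low counts, no RQI, no replicate block, every entry of the table, each pig left out in turn, and 1 added to each count in the ratios.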

Additional observations from a re-analysis of the deposited data

Results flagged for a closer look

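In 78 groups of 5 or 8 libraries, each a treatment and age for a level or a log2 ratio, 5 held a library far from the others. About 3.9 would do so by chance alone if the values of each group were normal, which was not checked. Levels and ratios use the same counts, so the groups are not independent. miR-222 stood at 217 scaled CPM in topsoil replicate 3 at day 11, with 103 as the next highest. miR-486 stood at 808878 scaled CPM in control replicate 6 at day 56, next 387437. miR-451 reached 1571 scaled CPM in topsoil replicate 4 at day 11, next 503. The log2 ratio of miR-222 to miR-486 was −11.56 in control replicate 4 at day 11, next highest −13.76. That of miR-221-5p to miR-486 was −24.60 in control replicate 4 at day 20, where miR-221-5p had a count of 0, with −18.43 as the next lowest.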

How the results depend on the processing

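Of the 33 results of the members, 241 values under the other settings kept their direction and side of the threshold, 18 had the opposite sign, 9 newly passed and 11 no longer passed, and the cause was not tested. For the 38 ratio results, 1 added to each count kept all 38. Of the correlations 17 values were kept, 11 reversed, 6 newly passed and 2 no longer passed. Values below are log2 differences unless named r.

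With TMM, miR-221-3p and miR-222 in control pigs from day 11 to day 56 were at 0.87 and 0.66 and no longer passed. Topsoil minus control reversed to 0.0168 for miR-221-3p at day 20 and to −0.0088 for miR-222 at day 56. In this scaling r was 0.603 for miR-221-3p and miR-222 at day 20 and −0.502 for miR-221-3p and miR-451 at day 56, both no longer passing, and reversed to −0.0701 and −0.0710 for miR-222 and miR-486 at days 11 and 20 and to 0.118 for miR-222 and miR-451 at day 56.

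With the library size without miR-486 and miR-451, calls from day 11 to day 56 were lost in control pigs (0.61 for miR-221-3p, 0.40 for miR-222) and all pigs (0.52, 0.46). Reversed were miR-221-5p from day 11 to day 20 in control pigs, −0.0354, and miR-222 between treatments at day 11, −0.0536.

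With total counts the day 56 differences were larger. In topsoil pigs miR-221-3p passed at 3.01 from day 20 and 2.92 from day 11, and miR-222 at 2.68 and 3.03. miR-221-5p passed from day 11 at 2.88 in control, 3.00 in topsoil and 2.94 in all pigs, and reversed to 1.91 from day 20 in topsoil pigs. Between treatments, miR-221-3p reversed at day 56 (0.27), and miR-221-5p and miR-222 at day 20 (−0.79 and −0.75). On total counts r for miR-221-3p and miR-222 was 0.823 at day 11 and 0.647 at day 56. With miR-486 it was −0.755, −0.867 and −0.782 for miR-221-3p at the 3 ages and −0.894, −0.895 (both reversed) and −0.848 for miR-222. With miR-451 all 6 reversed, to 0.443, 0.660 and 0.129 for miR-221-3p and 0.542, 0.525 and 0.484 for miR-222.

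Without the filter on low counts, miR-221-3p and miR-222 in control pigs were at 0.93 and 0.70 from day 11 to day 56 and no longer passed, and miR-222 between treatments at day 56 reversed to −0.10. Without the replicate block, miR-222 in control pigs was at 0.73 and no longer passed, miR-221-3p in topsoil pigs from day 11 to day 20 reversed to 0.0048, and no other call of a member changed. With every entry of the table, miR-221-3p between treatments reversed at day 20 (0.0863) and day 56 (0.0210), miR-221-5p and miR-222 in control pigs from day 11 to day 20 reversed to −0.0921 and −0.0192, and miR-222 from day 20 to day 56 passed at 0.81. With limma, topsoil minus control reversed for miR-221-3p at day 56 (0.0580) and miR-221-5p at day 11 (0.70), and miR-222 in control pigs from day 11 to day 56 was at 0.77 and no longer passed. With DESeq2 that difference was 0.56 and no longer passed, from day 11 to day 20 miR-221-5p and miR-222 in control pigs reversed to −0.0714 and −0.0638, and from day 20 to day 56 miR-222 passed at 0.63.

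With each pig left out, the member results kept direction and call in 402 fits, with 19 reversed, 3 newly passing and 5 no longer passing. In control pigs miR-221-3p ranged from 0.52 to 0.86 from day 20 to day 56 and from 0.87 to 1.27 from day 11 to day 56, miR-222 from 0.42 to 0.80 and from 0.74 to 0.88, and miR-221-5p from −0.44 to 0.70 from day 11 to day 20. In topsoil pigs miR-221-5p ranged from −0.72 to 0.32 from day 20 to day 56, and miR-222 from −0.0582 to 0.44 from day 11 to day 20 and from 0.49 to 1.19 from day 11 to day 56. Between treatments miR-221-3p ranged from −0.40 to 0.0227 at day 20 and from −0.25 to 0.0481 at day 56, miR-221-5p from −0.39 to 0.34 at day 11, and miR-222 from −0.21 to 0.35, −0.22 to 0.25 and −0.28 to 0.24 at the 3 ages. The log2 ratio of miR-221-3p to miR-451 in control pigs ranged from 2.68 to 3.66 from day 20 and from 2.24 to 2.97 from day 11 to day 56, and 0 to 2 ratio tests passed from day 11 to day 20, the 2 without control replicate 4.

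Numbers of miRNAs called moved by over 1.5 times in these settings. In control pigs from day 11 to day 20 the 11 became 2 with every entry, TMM or the library size without miR-486 and miR-451, 28 with limma, 1 without the filter, 0 with total counts and 0 to 18 with a pig left out. From day 20 to day 56 the 26 became 45 with DESeq2, 7 with total counts, 13 without control replicate 7 and 14 without replicate 2, and from day 11 the 37 became 102 with total counts and 24 without replicate 7. In topsoil pigs the 0 from day 11 to day 20 became 5 with DESeq2. There the 20 from day 20 to day 56 became 38 with DESeq2, 33 with limma, 106 with total counts, 12 with every entry, 13 with the library size without miR-486 and miR-451, 10 without the filter, and 12, 13, 5 and 6 without topsoil replicates 1, 2, 4 and 5, and the 28 from day 11 became 137 with total counts, 17 without the filter and 18 and 15 without topsoil replicates 2 and 5. Over all pigs the 53 became 162 with total counts. The 1 between treatments at day 20 became 3 with DESeq2, 2 without the filter or without control replicate 3 or 8, and 0 with limma or without topsoil replicate 3. The 0 of treatment by age became 2 with limma.

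The share of calls that were up also moved with the scaling. Against 36 up and 17 down over all pigs from day 11 to day 56 there were 161 and 1 with total counts, 16 and 26 with the library size without miR-486 and miR-451, and 39 and 29 with DESeq2. In control pigs the 27 and 10 became 101 and 1, 7 and 19, and 26 and 25, and 19 and 13 with TMM. In topsoil pigs the 16 and 12 became 136 and 1, 7 and 18, and 19 and 19, and 13 and 18 with TMM. miR-221-5p had the fewest counts of the 3 members, 0 to 907 per library.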
